A study of Conyza sumatrensis with 22 samples.

Results

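In 22 polyA RNA-seq libraries made from leaves of the weed Conyza sumatrensis (Sumatran fleabane), 144 of the 45437 gene models were read in only 1 of the 2 herbicide-sensitive populations, S and T, and reached a set level there. The third of the 3 populations, R, is resistant to the herbicide 2,4-D. Treated leaves were sampled 5 h after spraying with 2,4-D (dose 1005 g ai/ha), and the untreated leaves were sampled before the spraying, not beside it as an unsprayed group. There were 3 treated and 4 untreated R libraries, 4 treated and 4 untreated T libraries, and 4 treated and 3 untreated S libraries. A gene was chosen when all libraries of one sensitive population held 0 reads of it and its mean level in the other was at least 2 TPM (transcript abundance, as reads per effective length of the transcript scaled to the same total in every library). By this rule 98 genes were read in T and held 0 reads in the 7 S libraries, and 46 genes were read in S and held 0 reads in the 8 T libraries. They are called T-expressed and S-expressed members. These genes were chosen by their measured counts and TPM in S and T, so their levels there are given as a description and without a test. The labels do not say whether libraries of a group came from separate plants, how many plants a population was founded from, or at what clock time leaves were taken. P-values therefore measure the spread between these libraries, and treatment and time of sampling cannot be told apart.

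Populations of a plant species commonly differ in which genes they carry and in which genes their promoters keep silent, and a transcript survey reads both as a gene that is present in one population and missing in another. 2,4-D is a synthetic auxin. It is bound by the auxin receptors of the TIR1/AFB family, which then mark the Aux/IAA repressors for degradation and so release auxin-responsive genes within hours. Gene models are known only by identifiers such as g40164, without gene names, so what the named genes encode, where they lie and their sequences are not given. Leaf cell markers could not be looked up for the same reason.

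The libraries held 19.2 to 24.4 M assigned reads, with 19.2 to 24.4 M in R, 19.2 to 21.8 M in T and 20.1 to 23.5 M in S. Treated T libraries 3 and 4 stood apart from the others. Their effective transcript lengths were identical to each other in all 47916 transcript models, and a model of 210 bases had an effective length of 10.2 bases in these libraries, against 21.8 to 24.9 bases in the other 20. Gene models under 300 bases took 22.8% and 20.4% of the TPM of these libraries and 0.870% and 0.708% of their reads, against 7.21% to 9.38% of the TPM and 0.427% to 0.621% of the reads elsewhere. The main results on T-expressed members are therefore also given without both of them. Without both, the T-expressed genes numbered 103, of which 89 were members, and the S-expressed genes numbered 50, among them all 46 members.

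The T-expressed members were mostly genes of low level, with a few abundant ones. Their mean TPM over the T libraries had a median of 4.07 and ran from 2.06 to 111, and 57 of 98 lay under 5 TPM, while the 16699 genes with a mean of at least 2 TPM in T had a median of 14.9. Without treated T libraries 3 and 4 the median was 3.37 TPM, against 15.8 TPM over all such genes. The 5 highest members made up 36.9% of the summed mean TPM, and 2 of these 5, g2228 and g11467, owed nearly all of their level to treated T libraries 3 and 4. Without these libraries the 5 highest of the 103 T-expressed genes made up 35.7%. Between 86 and 96 of the 98 were read in any 1 T library, and 74 were read in all 8. Their summed level was 794, 679, 1280 and 1308 TPM in treated T libraries 1 to 4, against 817, 805, 865 and 779 TPM in the untreated ones. Treated libraries 3 and 4 were thus the highest, and with g2228 and g11467 left out, the pair with the highest mean TPM in them, these 2 libraries summed to 800 and 663 TPM.

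The most abundant T-expressed member, g40164, has a coding length of 672 bases. It stood at 149, 129, 57.4 and 23.2 TPM in treated T libraries 1 to 4 and at 148, 130, 134 and 120 TPM in the untreated ones. It was high in every untreated T library and varied most among the treated ones, where libraries 3 and 4 were lowest. With 12162 reads in T and 0 in S, its level was at least 3636-fold higher in T, taking 3 reads over all S libraries as the floor that a count of 0 allows. Such floors and intervals cover counting error only. In R it stood at 5.44, 2.95 and 1.69 TPM in the treated libraries and at 2.42, 1.32, 1.52 and 3.03 TPM in the untreated ones, so that all 7 R libraries held it at a level far under each T library.

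The next by mean level, g2228, differed in kind. It had 122 and 135 estimated reads in treated T libraries 3 and 4, or 284 and 344 TPM, and 0 reads in the other 20 libraries. Its coding length is 210 bases, and its reads were split by estimate with other transcripts in both libraries. Of the T-expressed members, 4 held T reads in treated libraries 3 and 4 only. One of the other 3, chosen here after its values were seen, is g10326, with a coding length of 981 bases and 566 and 1062 reads in these 2 libraries and 0 in the other 20. Another member seen afterwards, g11467, reached 196 and 300.2 TPM in them, against at most 4.88 TPM in the other T libraries. In 8 of the 98 members more than 50% of the T reads came from these 2 libraries, which was not counted over all genes. Over all genes, 4 held at least 10 reads in these 2 libraries and nowhere else, 3 of them members. For treated T libraries 1 and 2, untreated 1 and 2, and untreated 3 and 4, such genes numbered 2, 4 and 1, with 0 members among them.

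The S-expressed members had a narrower range, with mean TPM over the S libraries from 2.03 to 13.7 and a median of 3.67, against 14.8 for the 16220 genes with a mean of at least 2 TPM in S. Between 41 and 45 of the 46 were read in any 1 S library, and 37 were read in all 7. Their summed level ran from 217 to 246 TPM in treated S and from 205 to 402 TPM in untreated S. The highest, g4017, has a coding length of 204 bases and stood at 16.4, 14.8, 14.3 and 7.46 TPM in treated S libraries 1 to 4 and at 22.2, 9.42 and 11.2 TPM in the untreated ones. These 7 values came from 68 reads in all, and the treated and untreated libraries overlapped. The second, g28475, with 240 bases, averaged 11 ± 3.68 TPM in treated S (SD, n = 4) and 15.9 ± 16.3 TPM in untreated S (n = 3). Untreated S library 1 held 34.8 TPM of it and the other untreated ones 5.88 and 7.12 TPM.

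Members varied more between libraries of their own population than other genes did. The coefficient of variation of TPM over the T libraries had a median of 0.514 in the T-expressed members, against 0.251 over all genes with a mean of at least 2 TPM in T. Without treated T libraries 3 and 4 these medians were 0.427 and 0.178. Over the S libraries it was 0.598 in the S-expressed members, against 0.225. Counts were also fewer, with a median of 247 reads over the 8 T libraries for the T-expressed members, against 4020 for all genes of at least 2 TPM in T, and 139 reads over the 7 S libraries for the S-expressed members, against 3520 for all such genes in S. What the count difference contributes to the difference in variation was not tested.

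The contrast between the sensitive populations was not equally well resolved for all members. The lower bound of the fold between them had a median of 74 in the T-expressed members and of 51.7 in the S-expressed members. It reached at least 100-fold in 40 of 98 and in 15 of 46, and lay under 10-fold in 8 and in 6, down to 4.33-fold and 5.95-fold. At the edge of the rule, g42569 and g37986 were just inside at a mean of 2.06 and 2.10 TPM in T, and g22137 and g34449 just outside at 1.99 TPM each. On the S side g28854 and g28675 were just inside at 2.03 and 2.08 TPM, and g35349 and g38204 just outside at 1.98 TPM each. Genes with 0 reads in the other population and a mean of 1 to under 2 TPM numbered 77 for T and 48 for S. Genes over the TPM threshold that missed the rule by 1 to 10 reads in the other population numbered 126 and 63. The nearest of these held 1 read there, such as g11844 and g11941 in S and g10557 and g11187 in T.

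**Figure D1:**
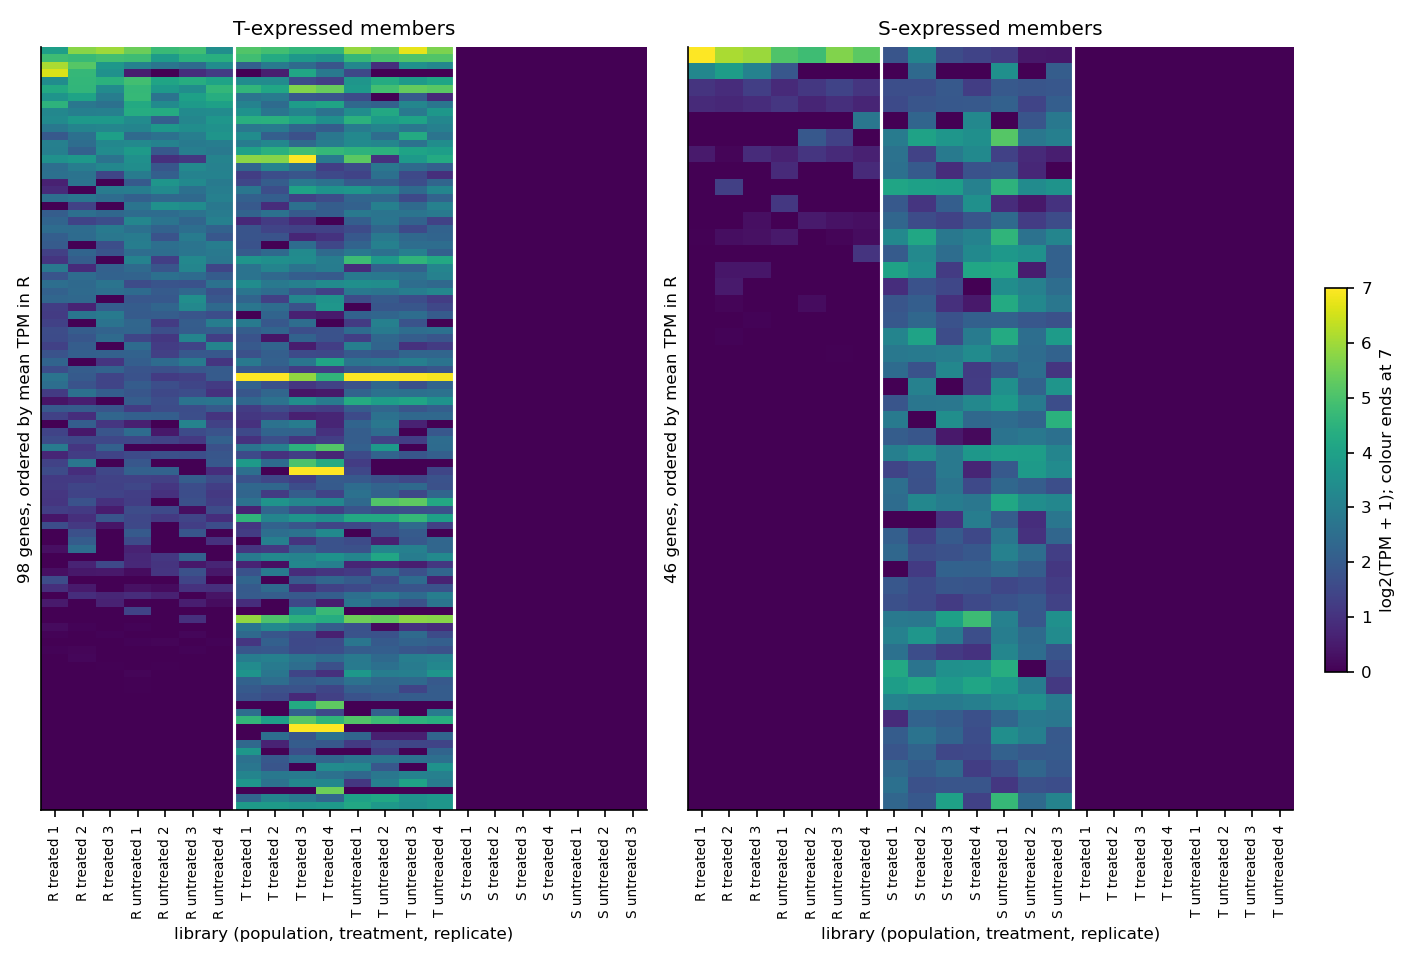
Level of each member in each library, as log2(TPM + 1), with the T-expressed members on the left and the S-expressed members on the right. Each row is a gene, ordered by its mean TPM in R, and each column is a library; dark cells are at or near 0. Of the T-expressed members 84 of 98 show reads in R, and of the S-expressed members 19 of 46.

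The R libraries had no part in choosing the genes and were read next. A larger share of the T-expressed than of the S-expressed members held reads in R. Of the 98 T-expressed members, 84 held at least 1 read in R (85.7%, exact 95% interval 77.2% to 92%) and 50 had a mean of at least 2 TPM there (51%, 40.7% to 61.3%). Of the 46 S-expressed members, 19 held a read in R (41.3%, 27% to 56.8%) and 2 had a mean of at least 2 TPM (4.35%, 0.531% to 14.8%). The S-expressed share with a read in R was 53.4% with fewer than 3 reads allowed in T, 61.7% with fewer than 10, and 56.3% on treated libraries only. Without treated T libraries 3 and 4, 90.3% of the 103 T-expressed genes held a read in R and 51.5% had a mean of at least 2 TPM there. Over all genes with a mean of at least 2 TPM in T, 99.8% held a read in R and 96.2% had at least 2 TPM there, and over all such genes in S these shares were 99.7% and 95.6%. Both lists thus lay below the other genes of their population, which were more abundant and were not chosen for a population difference. No test is given, since the members were chosen for differing between populations. The intervals treat genes as independent draws, which genes read from the same R libraries are not, so they are a description only.

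In size, the mean TPM in R was 0.492 times that in T at the median of the T-expressed members, against 1.01 times over all genes with at least 2 TPM in T. Without treated T libraries 3 and 4 these medians were 0.596 and 0.934. With all libraries it was above the T mean in 23 of the 98 members. In 18 others R held reads but stood under 10% of the T mean, and in 14 it held 0 reads. The T and R libraries did not overlap in 25 members, all lower in R, and 0 members lay wholly higher in R, with those at 0 counted where every T library held reads. The same count was not made over all genes, and the rule required a level in T, so nothing is read from it. In the S-expressed members the median ratio was 0, against 1.05 over all genes with at least 2 TPM in S. R held 0 reads of 27, stood under 10% of the S mean in 12 others, and exceeded the S mean in 2. The R libraries lay wholly below the S libraries in 33 of the 46 members and wholly above in 1, with those at 0 counted likewise. These counts were also not made over all genes, and nothing is read from them. Library by library, 61 to 75 T-expressed and 6 to 11 S-expressed members were read in R. The summed level of T-expressed members in R, at 353 to 438 TPM in treated and 276 to 426 TPM in untreated libraries, lay below that of every T library.

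The T-expressed members with the highest mean in R were g29667 and g20725, and both stood at like levels in T. Gene g20725, with a coding length of 810 bases, had 27.3, 25.1 and 28.7 TPM in treated R and 27.1, 13.3, 21.2 and 20.4 TPM in untreated R. In T it had 27.7, 18.4, 12.3 and 10.4 TPM in treated and 24.1, 30.3, 33 and 33.1 TPM in untreated libraries. R and T overlapped, with 2860 reads in R, 3453 in T and 0 in S. Gene g29667, with 216 bases, averaged 43.2 ± 25.5 TPM in treated R (SD, n = 3) and 26.5 ± 13.2 TPM in untreated R (n = 4), and 27.2 ± 4.76 TPM in treated T and 63.2 ± 28.9 TPM in untreated T (n = 4 each).

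Members that R lacked were not only those of low TPM. Gene g21063, with 297 bases, stood at 24, 14.4, 35.6 and 22.9 TPM in treated T and at 33.2, 26.4, 22 and 20 TPM in untreated T. It was thus read in all 8 T libraries. R and S held 0 reads of it, which sets its level in T at least 119-fold over R and at least 121-fold over S. Among S-expressed members with 0 reads in R, g34820 averaged 15.1 ± 2.22 TPM in treated S (SD, n = 4) and 6.88 ± 5.72 TPM in untreated S (n = 3). By counts g34820 was weak, with 43 reads in treated and 14 in untreated S, where the median S-expressed member had 139 reads in S. Gene g30291, with 618 bases and 892 reads in S, averaged 13.4 ± 9.81 TPM in treated S (n = 4) and 6.88 ± 3.86 TPM in untreated S (n = 3), at least 291-fold over R and at least 332-fold over T. Its treated and untreated S libraries overlapped.

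A single S-expressed member was higher in every R library than in any S library, while 33 of the 46 lay wholly lower in R. Gene g20320, with 312 bases, stood at 209, 67.8 and 60.5 TPM in treated R and at 32.4, 27.2, 49.9 and 36.6 TPM in untreated R. In S it stood at 2.57, 7.93, 2.09 and 1.64 TPM in treated and 1.34, 0.375 and 0.354 TPM in untreated libraries, from 42 reads in all, against 1113 reads in R and 0 in T. The other S-expressed member above 2 TPM in R, g35504, had 34 reads in R and 19 in S. Of the S libraries 4 of 7 held 0 reads of it.

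**Figure D2:**
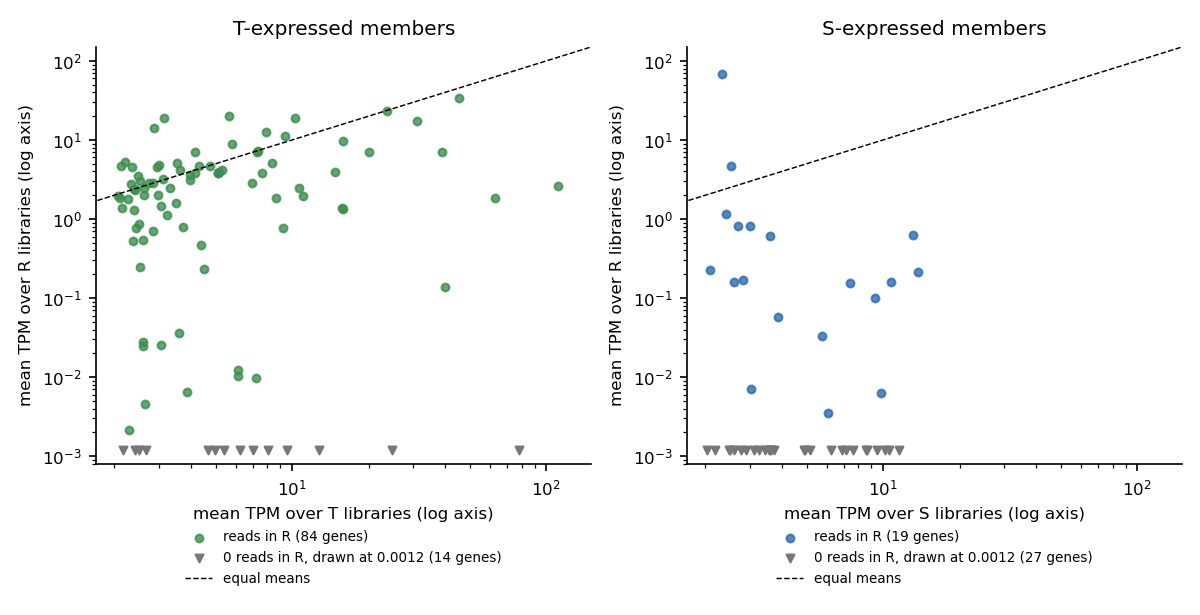
Mean TPM over the 7 R libraries against mean TPM over the libraries of the population that expresses the gene, on log axes, with T-expressed members on the left and S-expressed members on the right. Triangles are genes with 0 reads in R, 14 on the left and 27 on the right; points above the dashed line, 23 on the left and 2 on the right, were higher in R.

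Reads in some R libraries and not in others were common among the members. Of the T-expressed members, 46 were read in all 7 R libraries, 38 in 1 to 6 of them and 14 in none, while 1.79% of all genes with at least 2 TPM in T were read in some R libraries only. Of the S-expressed members, 4 were read in all R libraries and 15 in some of them, against 1.82% of all genes with at least 2 TPM in S read in some only. The T-expressed members had a median of 45.8 reads in R, against 3540 for all genes with at least 2 TPM in T. What this count difference contributes was not tested. The T-expressed member with the highest R library among those also at 0 in R was g14725, which is described with the responses. The second, g30361, with 294 bases, had 0.567, 5.45 and 0 TPM in treated R and 2.97, 11.6, 8.91 and 6.3 TPM in untreated R, from 73 reads. Among S-expressed members, g86 was read in 1 of 7 R libraries, untreated library 4, with 4 reads. Whether these R libraries differed by more than counting error was not tested, and g86 in particular rests on few reads.

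The same rule was applied to the other pairs of populations, which share the same libraries. Between R and S, 91 genes were read in R at 2 TPM or more and held 0 reads in S, and 53 were read in S and held 0 in R. Between R and T these counts were 21 read in R with 0 in T, and 29 read in T with 0 in R. Pairs with S as the population at 0 thus gave the most genes, 98 with T and 91 with R, and 50 genes were in both of these lists. Of the 53 genes read in S and at 0 in R, 27 were also at 0 in T.

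Members had a shorter coding length than other genes at the median, and the rule did not use length directly. The median was 414 bases in the T-expressed and 348 bases in the S-expressed members, against 1233 bases over all genes with at least 2 TPM in T and likewise in S. Members under 300 bases numbered 30 of 98 and 15 of 46, or 30.6% and 32.6%, while such genes were 3.16% and 2.99% of all genes at that level. Of all genes under 300 bases with at least 2 TPM in T, 5.69% were T-expressed members, against 0.108% of those of 1800 bases or more. In S these shares were 3.09% and 0.0443%. Without treated T libraries 3 and 4 the median length of the 103 T-expressed genes was 420 bases, and 28.2% of them were under 300 bases. A short gene reaches 2 TPM with fewer reads than a long one, and the part of this in the difference was not tested. Long members existed as well, up to 3777 bases in T and 2742 bases in S.

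**Figure D3:**
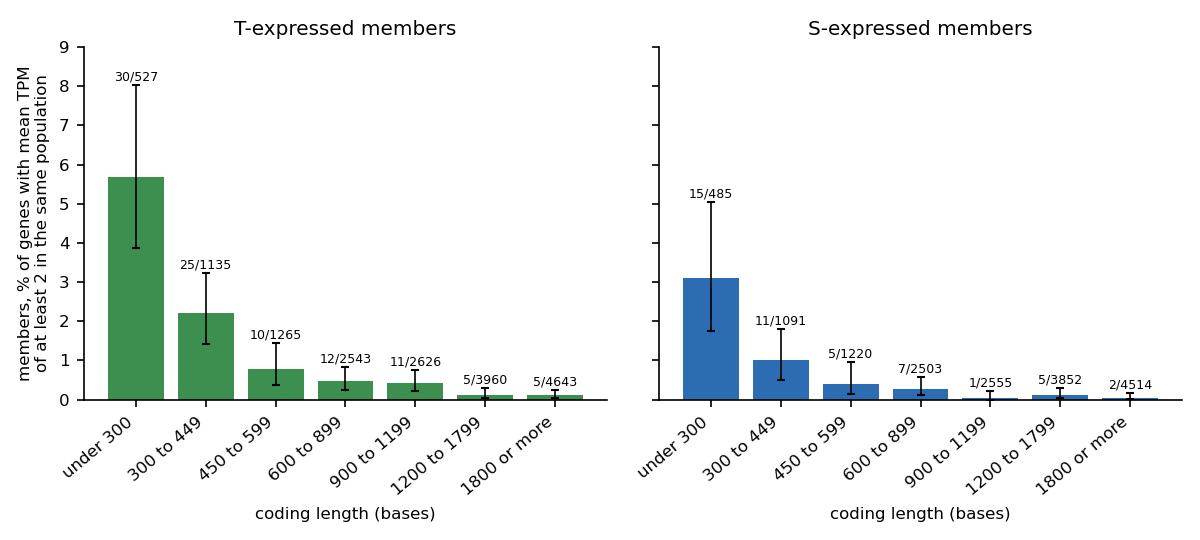
Members as a percentage of all genes with a mean of at least 2 TPM in the same population, by coding length in bases, for T-expressed members on the left and S-expressed members on the right. Bars are shares, error bars are exact 95% binomial intervals that treat genes as independent, and the counts stand above them. The share is 5.69% under 300 bases and 0.108% from 1800 bases in T.

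Other properties differed less. More than 1 transcript model was listed for 9 of 98 T-expressed members (9.18%) and 2 of 46 S-expressed members (4.35%), against 7.23% and 7.31% of all genes at that level. Reads were split by estimate with another transcript in at least 1 library of the expressing population in 27 T-expressed and 9 S-expressed members (27.6% and 19.6%), against 32.8% and 32.4% of all genes at that level. In those members a 0 in one population and reads in the other could also reflect how reads were divided between like sequences, which cannot be seen here. A whole count does not exclude this in the other members. Members also had fewer reads than the other genes, and the shares were not compared at like read counts. Among the identifiers of members 1 pair, g2678 and g2679, followed each other directly, and other spacings were not examined. Whether the running number follows position in a genome is not given in the sources used here.

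Treatment with 2,4-D was tested next, since the rule averaged over treated and untreated libraries. The test was edgeR's quasi-likelihood test over all 22627 genes that passed a filter on low counts, with p-values adjusted over all of them. Of the 98 T-expressed members 78 passed the filter. In T, 1 rose and 1 fell, 2 of 78 in all (2.56%), while 10.8% of all tested genes were called, 5.71% higher and 5.06% lower in treated leaves. At an unadjusted p under 0.05 there were 15 of 78 members (19.2%), against 27.7% of all tested genes. DESeq2 called 6 and gave no adjusted p for 11 of the 78, which could thus not be called. Its share of calls over all genes was not counted, here or below, so its counts stand without a background. The log2 fold changes ran from -2.01 to 3.63 with a median of -0.05, and 61 of 78 lay within 1 of 0. Their precision was lower than that of other genes, with a median standard error of 0.46 against 0.26 on the log2 scale, so that a missing call does not show that a member was unchanged.

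The member that rose in T was g43983, with a coding length of 1506 bases. It stood at 5.64, 8.94, 6.61 and 3.20 TPM in treated T and at 2.38, 0.169, 1.03 and 0.806 TPM in untreated T. Every treated library was above every untreated one, and the log2 fold change was 2.79 (SE 0.66, edgeR adjusted p = 0.0163). R held 7 reads of it in treated and 2 in untreated libraries. The call was lost without untreated T library 3 (2.77) or 4 (2.66), without treated library 3 (2.63), and without treated libraries 3 and 4 together (2.86, edgeR adjusted p = 0.101). The member that fell was g43972, with 696 bases, at 1.21, 1.34, 0.532 and 0.639 TPM in treated T and 1.99, 5.14, 4.19 and 4.20 TPM in untreated T. Its log2 fold change was -1.74 (SE 0.52, edgeR adjusted p = 0.0426), and the groups did not overlap. That call held under 7 of 16 alternatives, and without treated T libraries 3 and 4 the value was -1.42 (edgeR adjusted p = 0.387).

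Of the 46 S-expressed members 31 passed the filter, and 0 were called for a response in S with edgeR, against 3.04% of all tested genes (2.58% higher and 0.46% lower). An unadjusted p under 0.05 was reached by 4 of 31 (12.9%), against 15.4% of all tested genes. DESeq2 called 1 and gave no adjusted p for 3 of the 31. The log2 fold changes had a median of -0.25 and ran from -2.57 to 2.63, and 25 of 31 lay within 1 of 0. Their median standard error was 0.65, against 0.28 over all tested genes.

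In R, the response could be read for 71 T-expressed and 14 S-expressed members that passed the filter and had reads in R. With the filter run on the R libraries alone, 44 T-expressed and 4 S-expressed members passed, so the others were tested through their level in T or S. Shares of all tested genes are therefore given beside the counts in R as background, and nothing is read from the difference. Of the 71, 2 rose and 3 fell, 5 in all (7.04%), against 16.4% of all tested genes (9.37% higher and 7.03% lower). An unadjusted p under 0.05 was reached by 10 of the 71 (14.1%), against 29.2% of all tested genes, and DESeq2 called 6. Of the 14, 1 rose. All but 1 of these 6 calls had treated and untreated R libraries that did not overlap. The same was not counted over all called genes, so nothing is read from it.

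The largest rise was that of g14725, with a coding length of 300 bases. It stood at 96.8, 24.2 and 10.7 TPM in treated R and at 0.464, 0, 0.882 and 1.36 TPM in untreated R. Most reads came from treated leaves, with 256 in treated and 6 in untreated R libraries (log2 fold change 5.98, SE 1.41, edgeR adjusted p = 0.00976). In T it was read in treated libraries 2, 3 and 4, at 0.497, 16.6 and 6.06 TPM, and in untreated library 1 at 1.84 TPM, and S held 0 reads. It was not called without treated R library 1 (4.49, edgeR adjusted p = 0.064).

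Gene g35069, with 309 bases, also rose in R, to 68.4, 34.7 and 12 TPM in treated libraries, against 7.61, 5.61, 4.42 and 9.53 TPM in untreated ones (log2 fold change 2.53, SE 0.67, edgeR adjusted p = 0.0181). In T it averaged 4.20 ± 1.60 TPM in treated and 7.15 ± 4.29 TPM in untreated libraries (SD, n = 4 each). The call was lost without untreated R library 2 (2.48) or 3 (2.33) and without treated library 1 (1.68, edgeR adjusted p = 0.15).

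Among S-expressed members, g20320 rose in R, with a log2 fold change of 1.7 (SE 0.51, edgeR adjusted p = 0.0348). Its treated R libraries averaged 113 ± 83.9 TPM (SD, n = 3) and its untreated ones 36.5 ± 9.71 TPM (n = 4), and library 1 was highest among the treated. Without that library the log2 fold change was 0.74 (edgeR adjusted p = 0.377), and the call was also lost without any 1 of the 4 untreated R libraries (1.62 to 1.82). In S it had 37 reads in 4 treated and 5 in 3 untreated libraries.

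Of the 3 members that fell in R, g29758, with 372 bases, had 3 reads in treated R and 69 in untreated R. It stood at 0.282, 0.496 and 0 TPM in treated R and at 3.17, 2.22, 5.40 and 5.57 TPM in untreated R. The ratio of untreated to treated levels was 15.9, between 5.21 and 78.9 by counting error (-3.84 on the log2 scale, SE 0.73, edgeR adjusted p = 0.00249). Gene g18368, with 315 bases, had 0, 1.60 and 0 TPM in treated R and 5.47, 10.6, 9.59 and 6 TPM in untreated R (-3.73 on the log2 scale, SE 0.91, edgeR adjusted p = 0.0117). That call was lost without treated R library 1 (-3.27, edgeR adjusted p = 0.0524) and in a model of R alone (-3.7). The remaining one, g19163, named here because it completes the count, had 0 reads in treated R and 24 in untreated R, at least 5.53-fold lower in treated R (edgeR adjusted p = 0.0282), and 1 untreated R library was at 0 as well. That call held under 7 of 12 alternatives and was lost without untreated R library 2 or 3 and without any 1 of the 3 treated R libraries (edgeR adjusted p of 0.0532 to 0.0748).

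**Figure D4:**
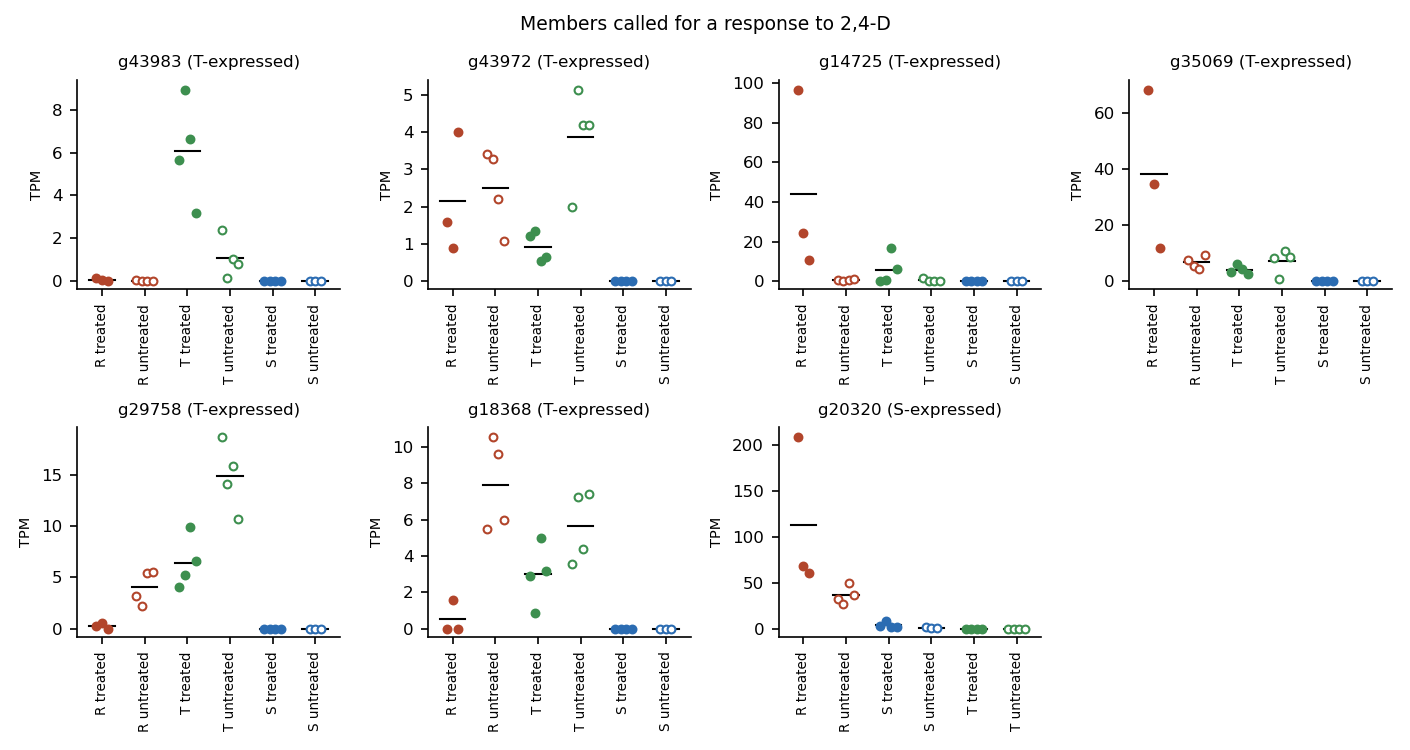
TPM per library of the 7 named members called for a response to 2,4-D, on linear axes that differ between panels. Filled points are treated and open points untreated libraries, lines are group means; g43983 and g43972 were called in T and the other 5 in R.

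Over all tested genes, 8.47% were called for a difference between the responses of R and T (3.94% higher and 4.53% lower). Of the 71 T-expressed members, edgeR called 1. This was g29758, which in T stood at 4.07, 5.20, 9.92 and 6.58 TPM in treated and at 18.8, 14.1, 15.9 and 10.8 TPM in untreated libraries. By TPM its treated T libraries were all below the untreated ones, as in R. The decrease in T was not called (-0.80 on the log2 scale, SE 0.46, edgeR adjusted p = 0.282). The difference between the responses was -3.04 on the log2 scale (SE 0.87, edgeR adjusted p = 0.0445), the estimated decrease being larger in R. That call held under 9 of 23 alternatives, and without treated T libraries 3 and 4 the difference was -2.33 (edgeR adjusted p = 0.215). An unadjusted p under 0.05 was reached by 8 of 71 members (11.3%), against 28.4% of all tested genes. DESeq2 called 4 and gave no adjusted p for 16 of the 71. The median standard error of the 71 was 0.92, against 0.38 over all tested genes. With the filter run on the R libraries alone 44 T-expressed members passed, so the others were tested through their level in T. These counts therefore do not show that the members responded alike in R and T. For the difference between the responses of R and S, edgeR called 0 of the 14 S-expressed members, beside 3.61% of all tested genes (1.97% higher and 1.64% lower). Their median standard error was 1.34, against 0.40 over all tested genes, so the count of 0 does not bear on whether the responses differed. Of the 14, DESeq2 called 1, and 2 (14.3%) reached an unadjusted p under 0.05, against 21.7% of all tested genes. These comparisons share the R libraries with the responses in R.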

How the data were processed

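Every library came with a table listing transcript models. As deposited, and per the file headers, it gave estimated counts (reads assigned to a transcript, which need not be whole), TPM, coding length and effective length. The submitters' processing notes name Trimmomatic and Salmon. Tool versions, build, reference transcripts and strandedness: not given in the sources used here. Lengths were multiples of 3 in 47817 of 47916 models, hence coding length. A count was taken as split where a transcript's count was not whole within 5e-04, which held for 26.1% to 41.7% of the reads of a library.

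Estimated counts and TPM were summed per gene model. For the tests, counts were rounded, filtered by filterByExpr (22627 gene models kept, 22810 removed) and scaled by TMM factors of 0.837 to 1.12. A robust quasi-likelihood model of the 6 groups was fitted with edgeR 4.0.16 in R 4.3.3, with Benjamini-Hochberg adjustment over all tested genes and calls at an adjusted p under 0.05. The common biological coefficient of variation was 0.304. SE is the absolute log2 fold change over the square root of F. DESeq2 1.42.0 was an alternative. The code was tested on simulated data.

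Members and lists were chosen with earlier results of these data known. Named genes are, per direction, the 2 highest in the expressing population, the 2 highest in R, the 2 highest with 0 reads in R, the 2 with R libraries both at 0 and highest, and those at the edge of the rule, and per response the 2 largest called changes each way whose groups do not overlap in CPM.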

Additional observations from a re-analysis of the deposited data

Results flagged for a closer look

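A library lay far from the other 3 of its group in 6 of the 44 gene and group pairs examined among the named members. The limit used flags about 1 in 20 groups of normally spread values, which does not apply where the other 3 libraries are at 0. Some of these genes were also named for R libraries both at 0 and high. The 6 are therefore not compared with that rate. In untreated T, library 1 held 1.84 TPM of g14725 and the other 3 held 0. In treated S, library 2 held 7.93 TPM of g20320, against 1.64 to 2.57 TPM in the others, and 4.27 TPM of g35504, against 0. In untreated R, library 1 held 2.72 TPM of g35504 and 0.0496 TPM of g43983, and library 4 held 5.66 TPM of g86, with the other 3 at 0 in each case. The response of g29758 differed between R and T by -3.04 on the log2 scale (edgeR adjusted p = 0.0445).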

How the results depend on the processing

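The number of members moved with the limits of the rule. T-expressed genes numbered 175 and 41 with a mean of at least 1 and 5 TPM, 221 with fewer than 10 reads allowed in S and 161 on untreated libraries only. S-expressed genes numbered 94 and 19 with 1 and 5 TPM, 73 and 107 with fewer than 3 and 10 reads allowed in T, and 75 on untreated libraries only. Leaving out single libraries gave 96 to 112 and 45 to 56. The share read in R moved to 92.3% for T-expressed and 61.7% for S-expressed genes with fewer than 10 reads allowed, and to 93.8% for T-expressed genes on untreated libraries. It ran from 82.7% to 87.8% and from 34.8% to 50% without single libraries.

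Counts of called members were small. Over the 6 counts and their alternatives, 58 of 98 alternatives left the count within 1.5 times and 40 moved it further. In T, 6 were called with DESeq2 and 0 without treated libraries 3 and 4, an alternative chosen after seeing the data, and 0 to 5 without single libraries. In S, 1 was called with DESeq2 and 0 to 1 without single libraries. In R, 3 T-expressed and 0 S-expressed members were called in a model of R alone, and 1 to 6 and 0 to 1 without single libraries. For R minus T, 4 were called with DESeq2, 2 with only both populations in the model, 0 without a filter, 0 without treated T libraries 3 and 4, and 0 to 3 without single libraries. For R minus S, 1 was called with DESeq2 and 0 to 1 without single libraries. Effective-length offsets, also added after seeing the data, left 2 calls in T and 1 in R minus T. The direction of the 9 called responses was the same under every alternative run on them.

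Replicate numbers did not pair the libraries: the deviations of same-numbered treated and untreated libraries of a population correlated at -0.406 to 0.0386 over 10 pairs, and 1 of 20 libraries correlated best with its own number. With a replicate block, 0 members were called in T, 0 in S, 1 T-expressed and 0 S-expressed in R, and 0 for R minus T and for R minus S. With 0 reads in a population, the depth allows up to 3 reads over its libraries, which leaves 14 members with a bound under 10-fold.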
